A study of Mus musculus with 8 samples.

Results

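The genes described here are 10 subunits of the Sin3 corepressor complex, chosen by name: Sin3a, Sin3b, Hdac1, Hdac2, Rbbp4, Sap30, Sap130, Suds3, Arid4b and Ing1. They are 10 of 22367 protein-coding genes, and of 37273 annotated genes, in the GENCODE M1 annotation of the mouse mm9 assembly. Every peak of 5-hydroxymethylcytosine (5hmC) within each gene and 10 kb on each side, called its locus, was taken from 6 peak lists, which gave 456 peaks. The 10 loci held 635184 bp and did not overlap each other. Positions are given in bp from the transcription start site (TSS), along the direction of transcription, with negative values upstream.

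5hmC was mapped by GLIB-Seq, in which the base is tagged with biotin through an added sugar so that fragments carrying it can be captured and sequenced. The 6 lists came from 1 library each of mouse embryonic stem cells (ESCs) of the E14 line, mouse embryonic fibroblasts (MEFs) of C57BL/6 embryos, brain and liver of C57BL/6 mice at 8 weeks of age, and E14 ESCs that received a short hairpin RNA to Suz12 (shSuz12) or, as control, to GFP (shGFP) by transfection and were selected with puromycin. The MEFs were of embryonic day 11 by the labels, the methods give a later day, and the sources used here do not state which Suz12 hairpin made the shSuz12 library. A peak list shows neither expression nor protein, so the depletion of Suz12 and the identity of the cells could not be checked in it, and in whole tissue more cells with the mark and more mark per cell cannot be told apart.

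Sin3a and Sin3b are scaffolds without enzyme activity of their own. They carry the histone deacetylases Hdac1 and Hdac2 and the histone-binding chaperone Rbbp4 to chromatin, where DNA-binding partners such as the Mad proteins recruit them and the removal of acetyl groups from histones represses transcription. Tet1, an enzyme that makes 5hmC from 5-methylcytosine, has been found together with Sin3a in ESCs, and Suz12 is a core subunit of the Polycomb repressive complex PRC2, to which Rbbp4 also belongs.

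The score of a peak, from the MACS peak caller, is read here as 10 times the negative log10 of a p-value within its own list, so scores rank peaks within a list and are not levels of 5hmC. The lists held between 130408 and 217025 peaks. The lowest score was 80 in the ESC and liver lists, 30 in those of MEFs and of brain, 50.02 for shGFP and 30.34 for shSuz12, so that weaker peaks are listed in some libraries than in others. Read counts and depth are unknown. With 1 library per condition there is no spread between replicates, and no difference between conditions was tested.

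All 10 loci held at least 1 peak in every library, as did 77.6% of protein-coding loci in ESCs, 75.8% in MEFs, 72.2% in brain, 68.0% in liver, 75.8% in shGFP and 76.2% in shSuz12. Peaks covered 16.2% of the bp of the 10 loci in ESCs, 5.79% in MEFs, 13.9% in brain, 17.9% in liver, 10.3% in shGFP and 7.93% in shSuz12. Over all protein-coding loci the shares were 12.4%, 11.0%, 12.8%, 13.2%, 8.06% and 5.54% in the same order. The Sin3 genes thus lay above the pooled share in every library but MEFs, where theirs was lower. Without the 3 members on chromosome 8, Sin3b, Sap30 and Ing1, the pooled excess in the ESC libraries was small. The other 7 members together had 12.3% in ESCs, 7.62% in shGFP and 5.80% in shSuz12, beside 11.7%, 7.57% and 5.20% over all loci outside that chromosome. Pooling by bp gives long loci more weight, and those 7 differed widely. In ESCs they ran from 1.55% at Arid4b, the longest locus (156372 bp), to 53.4% at Suds3, the highest of any member. The number of members above the median of all protein-coding loci was 6 in ESCs, 6 in MEFs, 8 in brain, 10 in liver, 7 in shGFP and 7 in shSuz12. The MEF list was the longest of the 6 and covered the largest part of the genome (7.83%), yet it placed the fewest peaks at these genes, 44 against 90 in ESCs, 74 in brain, 98 in liver, 72 in shGFP and 78 in shSuz12.

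**Figure D1:**
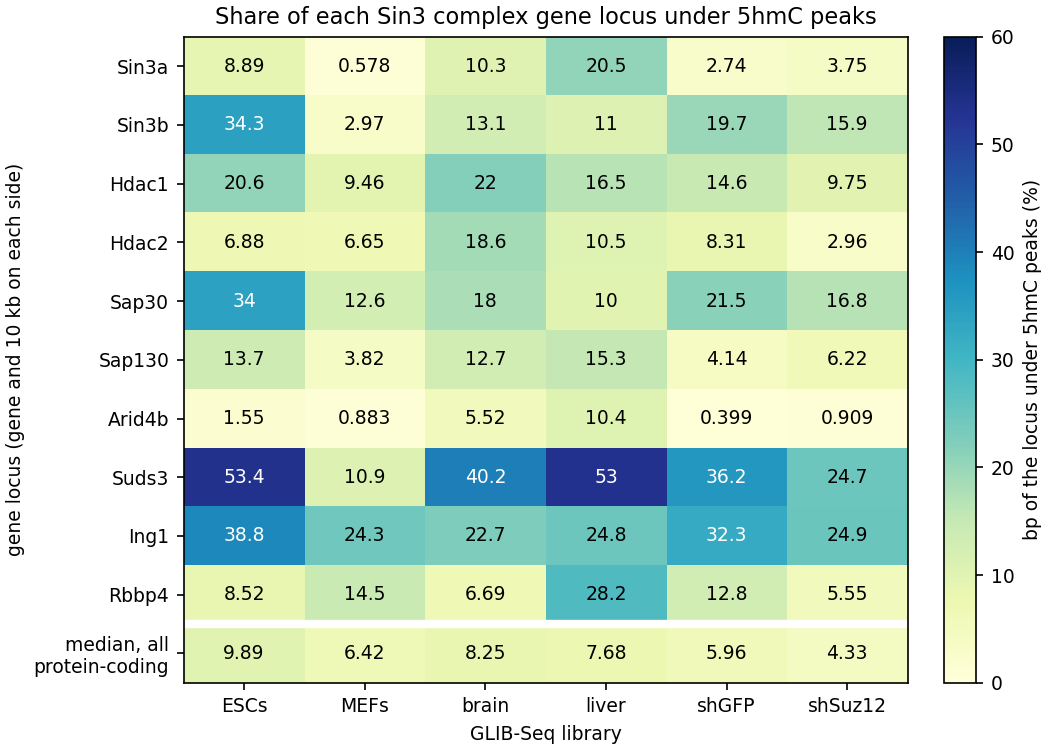
Share of each locus (gene and 10 kb on each side, rows) under 5hmC peaks, in percent of its bp, in the 6 libraries (columns, 1 library each), with the median over all protein-coding loci in the lowest row. Suds3 reached 53.4% in ESCs and 53.0% in liver, and Arid4b stayed at or below 1.55% in all libraries but brain (5.52%) and liver (10.4%).

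The members differed widely among themselves. Suds3, needed for the assembly of an active deacetylase complex, had the highest share in ESCs (53.4%), brain, liver and shGFP, while Ing1 was highest in MEFs and shSuz12. In ESCs 96.9% of protein-coding loci had a lower share than Suds3. Arid4b, a chromatin-binding subunit with an ARID domain and a chromodomain, had 1.55% under peaks in ESCs, and only 26.5% of protein-coding loci lay below it.

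The TSS itself was rarely marked. A peak touched the TSS window, the 1 kb on each side of the TSS, in 2 of 10 members in ESCs (31.9% of all protein-coding genes), 4 in MEFs (30.1%), 1 in brain (20.0%), 3 in liver (29.4%), 3 in shGFP (27.1%) and 2 in shSuz12 (21.4%). Of the members 9 have a CpG-rich promoter, and over CpG-rich promoters alone the shares were 27.1%, 34.6%, 19.7%, 40.5%, 22.3% and 17.0% in the same order. The counts of members lie around these shares and are too small to set them apart. The TSS base itself was under a peak for 1 member in 1 library, Sin3b in shGFP. Over all protein-coding genes the TSS base was under a peak in 11.8% in ESCs, 6.87% in MEFs, 4.46% in brain, 5.38% in liver, 11.2% in shGFP and 5.83% in shSuz12. With the TSS of any annotated transcript in place of the 5' end of the gene, the members with a peak over the window were 5 in ESCs (45.4% of all protein-coding genes), 6 in MEFs (40.6%), 4 in brain (34.9%), 5 in liver (39.9%), 5 in shGFP (39.4%) and 4 in shSuz12 (34.7%).

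Sin3b and Hdac2 were the members with a recurring peak just upstream of the TSS. The Sin3b peak lay at -667 to -144 in ESCs (score 252.6), -654 to -140 in MEFs (43.26), -758 to -52 in liver (100.4), -695 to 186 in shGFP (90.83) and -1011 to -97 in shSuz12 (78.13), and brain had none. Hdac2, on the plus strand of chromosome 10, had its peak at -1085 to -340 in ESCs (score 92.7), -1423 to -486 in MEFs (70.83), -953 to -433 in brain (35.91), -1273 to -285 in liver (150.25) and -1035 to -243 in shGFP (61.19). The shSuz12 list had no peak there, and its nearest began at 2382. In both genes the peaks stopped short of the start site, except for Sin3b in shGFP. Of the 200 bases just before the TSS, Sin3b has 11 CpG and Hdac2 has 21, against 6 and 5 CpG in the 200 bases at the middle of the stretch under a peak in 5 libraries. At Hdac2 no peak of these lists reaches the 200 bases before the TSS. At Sin3b the upstream peak enters them in ESCs, MEFs, liver and shSuz12 and covers them in shGFP, so they are not an unmarked stretch. These 4 sequences are shown to set the middle of the shared peak beside the CpG-rich start, in mm9, 5' to 3' along the gene, with every CpG in capitals.
Sin3b upstream peak, chr8:75246688-75246887, plus strand, -499 to -300: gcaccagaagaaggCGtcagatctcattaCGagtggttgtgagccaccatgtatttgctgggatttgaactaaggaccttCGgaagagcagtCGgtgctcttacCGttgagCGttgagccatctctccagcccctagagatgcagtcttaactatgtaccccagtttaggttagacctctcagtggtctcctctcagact
Sin3b before the TSS, chr8:75246987-75247186, plus strand, -200 to -1: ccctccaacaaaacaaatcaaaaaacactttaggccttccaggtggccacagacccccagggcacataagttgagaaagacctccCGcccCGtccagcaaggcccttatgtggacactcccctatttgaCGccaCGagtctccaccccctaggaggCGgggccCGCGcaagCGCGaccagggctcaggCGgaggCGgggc
Hdac2 upstream peak, chr10:36693531-36693730, plus strand, -819 to -620: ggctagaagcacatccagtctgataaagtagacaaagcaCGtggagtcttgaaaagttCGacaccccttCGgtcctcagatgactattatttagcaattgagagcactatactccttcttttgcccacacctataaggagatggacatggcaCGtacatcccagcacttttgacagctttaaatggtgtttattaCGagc
Hdac2 before the TSS, chr10:36694150-36694349, plus strand, -200 to -1: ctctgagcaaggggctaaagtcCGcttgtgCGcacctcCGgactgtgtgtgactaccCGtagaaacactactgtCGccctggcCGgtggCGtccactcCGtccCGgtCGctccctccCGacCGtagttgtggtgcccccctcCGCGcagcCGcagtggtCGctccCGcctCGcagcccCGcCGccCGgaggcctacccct

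Sin3b also had peaks that entered the window downstream of the TSS, by 576 bp in ESCs (424 to 1809, score 339.17), 112 bp in liver and 30 bp in shGFP, and Hdac2 had such a peak in liver, by 197 bp. The other members had few contacts. Hdac1 had a peak at -875 to -61 in liver (score 119.27), and Suds3 had a narrow peak of 315 bp at -659 to -345 in shSuz12 (76.2). Ing1 in MEFs reached 15 bp into the window, and Rbbp4 reached 80 bp in MEFs and 24 bp in shGFP. Sin3a, Sap30, Sap130 and Arid4b had no peak in the window in any library. Sap30 came closest, with a liver peak that ended at -1016. The share of all protein-coding genes without a peak there in any library is not given here, so these members cannot be set against it.

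**Figure D2:**
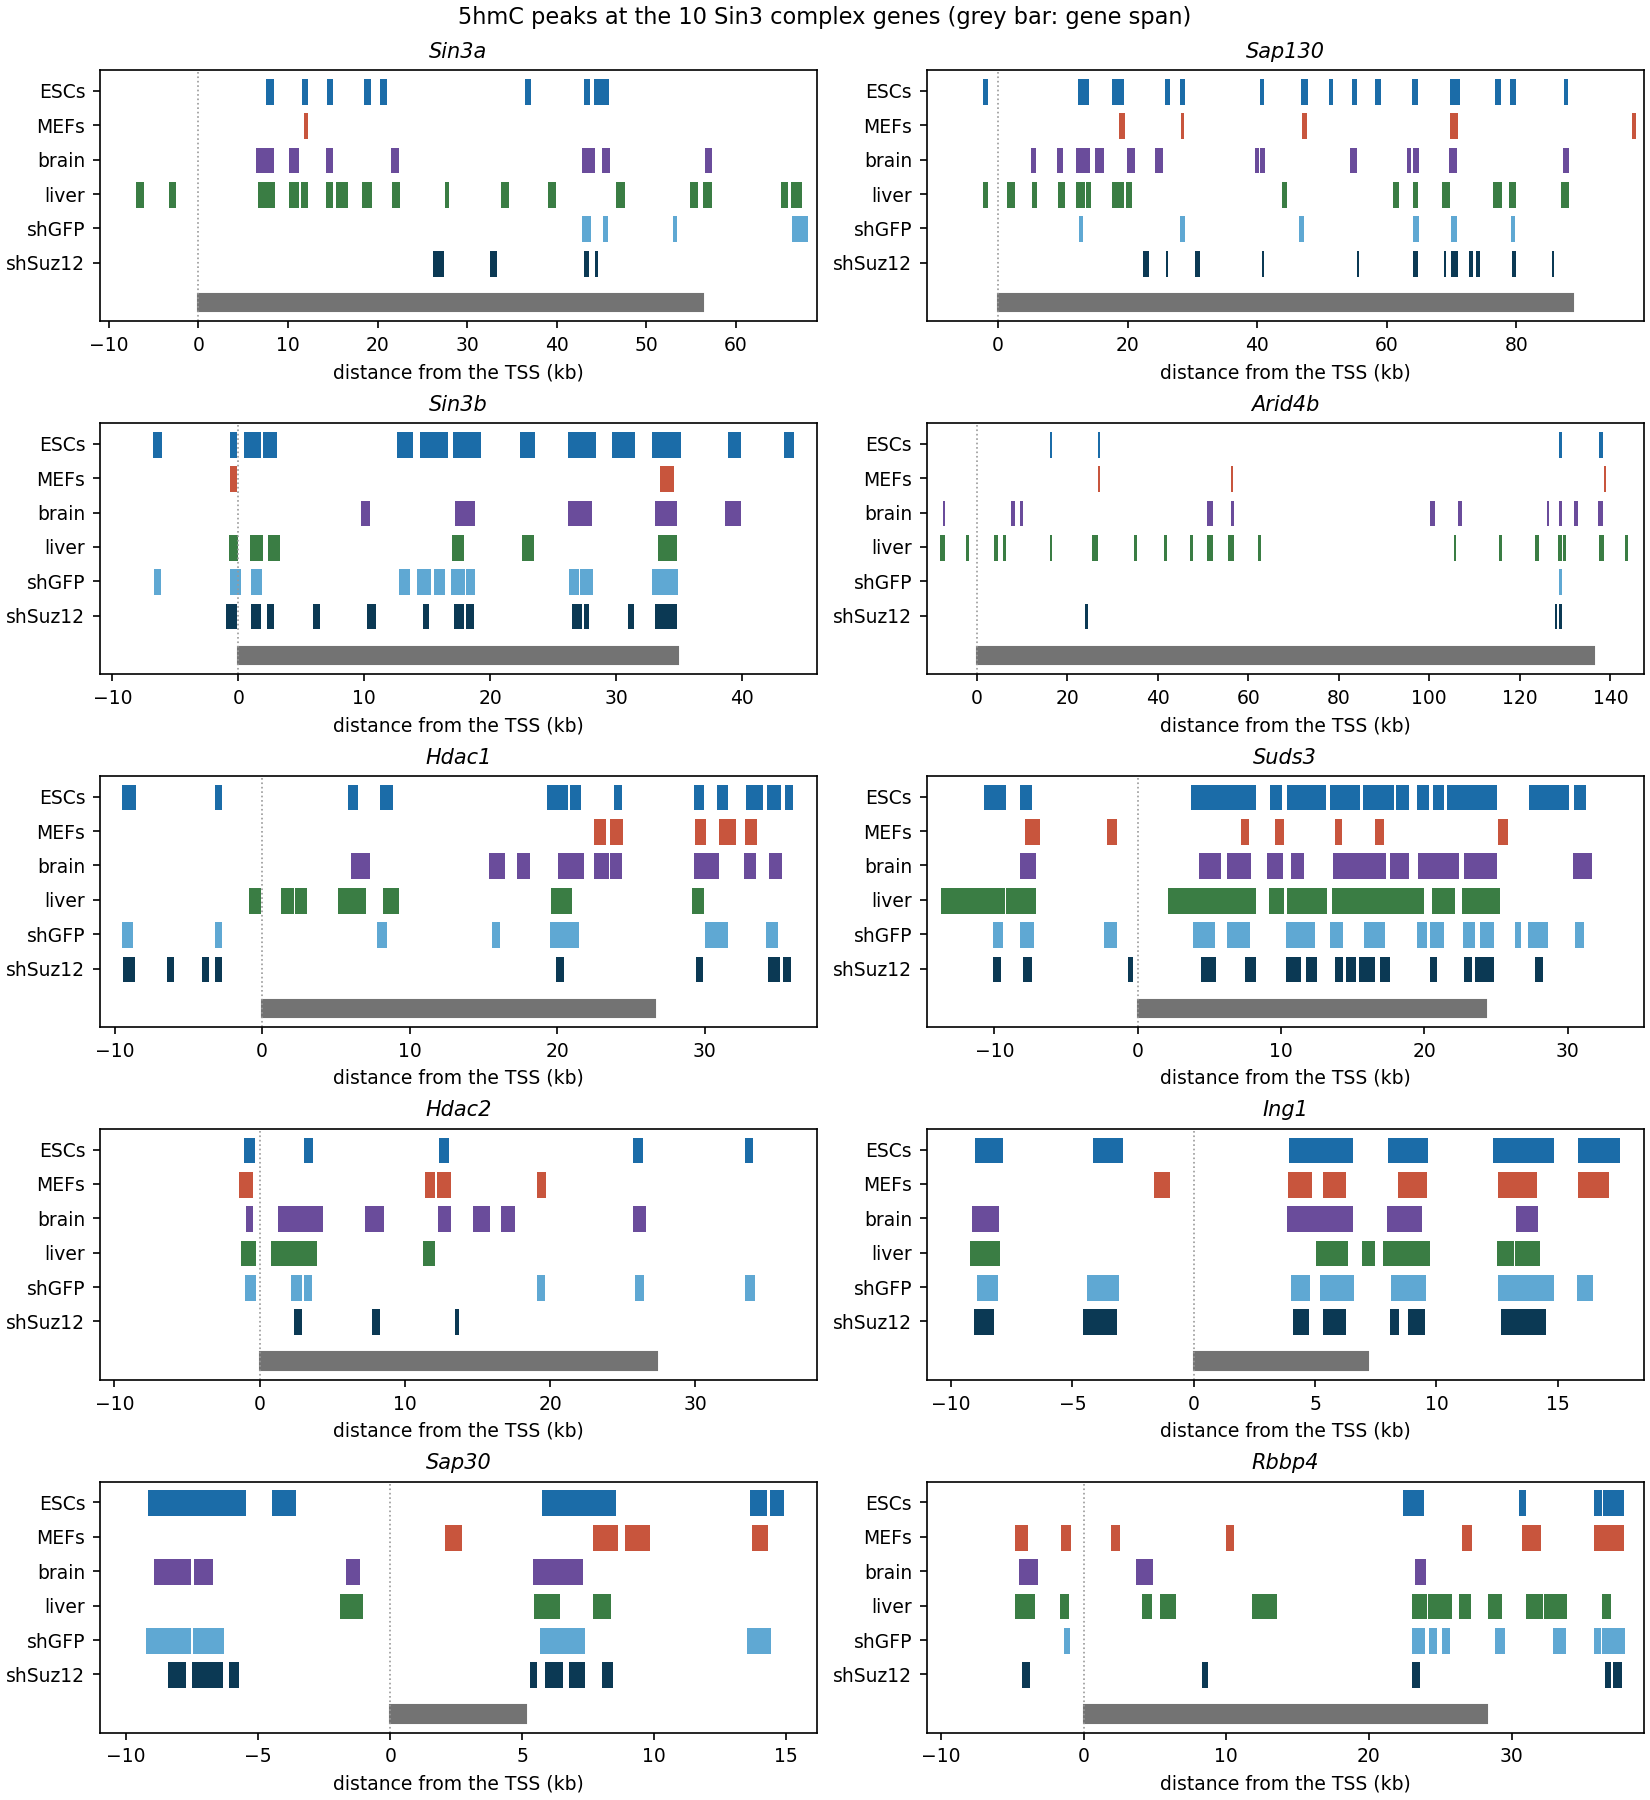
Position of every 5hmC peak at the 10 genes, in kb from the TSS (dotted line), with 1 row of bars per library and a grey bar for the gene span; a bar is as wide as its peak and its colour only names the library. Peaks recur at the ends of Sin3b, Suds3 and Ing1, the start sites are mostly bare, and MEFs have 1 peak at Sin3a.

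Sin3a, the larger scaffold gene (chr9:56919847-56976173, plus strand), held most of its peaks in the gene body. Its locus had 9 peaks in ESCs, 1 in MEFs, 8 in brain, 17 in liver, 4 in shGFP and 5 in shSuz12, which covered 8.89%, 0.578%, 10.3%, 20.5%, 2.74% and 3.75% of the bp. The only MEF peak lay in an intron at 11756 to 12196 (score 37.4). Brain and liver shared a block near 7 kb, at 6424 to 8423 in 2 adjoining brain peaks (50.45 and 46.19) and at 6662 to 8545 in liver, where it had the highest score of the locus (651.51). ESCs had a peak over part of it, at 7571 to 8384 (145.04). The shGFP and shSuz12 lists had no peak in the gene before 42860 and 26148, respectively. An intronic stretch near 43 kb was under a peak in ESCs (43048 to 43765, 170.25), brain (42823 to 44253, 76.03), shGFP (42860 to 43783, 51.45) and shSuz12 (43070 to 43586, 38.96), and not in MEFs or liver. Part of the gene, including that stretch, overlaps another annotated gene, 2410133F24Rik, so a peak there cannot be given to Sin3a alone.

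Sin3b, the other scaffold (chr8:75247187-75282102, plus strand), had peaks along its gene and a recurring one at its end. Its locus had 13 peaks in ESCs, 2 in MEFs, 5 in brain, 6 in liver, 11 in shGFP and 12 in shSuz12, covering 34.3%, 2.97%, 13.1%, 11.0%, 19.7% and 15.9% of the bp. A peak over the end of the gene was present in all 6 lists. It ran from 32855 to 35109 in ESCs, with the highest score of any member peak (2490.97, at or above 99.6% of the list), and from 33482 to 34595 in MEFs (88.4). The same place scored 88.98 in brain, 191.49 in liver, 558.94 in shGFP and 220.34 in shSuz12. It held the highest score of the locus in all libraries but brain, where that was 141.39 at 17219 to 18797, and liver, where it was 205.46 at 888 to 1965. In MEFs this peak and the upstream one were the only peaks of the locus. A wide peak from 26163 to 28391 in ESCs (1310.28) was met by brain (26187 to 28060, 76.07) and by peaks in shGFP and shSuz12, but not by MEFs or liver.

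Hdac1, a deacetylase (chr4:129193348-129219957, minus strand), had 12 peaks in ESCs, 5 in MEFs, 9 in brain, 7 in liver, 8 in shGFP and 8 in shSuz12. They covered 20.6%, 9.46%, 22.0%, 16.5%, 14.6% and 9.75% of the locus. A peak over exons near 20 kb was present in all lists but MEFs, at 19286 to 20743 in ESCs (730.49), 20054 to 21853 in brain (83.85), 19598 to 20996 in liver (219.95), 19540 to 20473 in shGFP (180.17) and 19953 to 20462 in shSuz12 (48.18). MEFs had their peaks in the gene from 22505 on. Near the TSS only liver had peaks within the gene, at 1280 to 2151 (81.49) and 2218 to 3026 (163.41). The next liver peak, at 5161 to 7057 (350.57), met an ESC peak (5804 to 6474, 118.21) and a brain peak (6022 to 7348, 35.98). The most distant upstream peaks in ESCs, shGFP and shSuz12 overlap the neighbouring gene Lck.

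Hdac2, the other deacetylase (chr10:36694350-36721695, plus strand), had 5, 4, 7, 3, 6 and 3 peaks in the same order of libraries, over 6.88%, 6.65%, 18.6%, 10.5%, 8.31% and 2.96% of the locus. Brain and liver each had a wide intronic peak downstream of the TSS, at 1281 to 4336 in brain (293.43, the highest score of any member peak in that list) and 803 to 3923 in liver (781.26). ESCs, shGFP and shSuz12 had only narrow peaks of 507 to 712 bp within that stretch, and MEFs had none. The highest MEF score at the locus was 115.47, in an intron at 12177 to 13159.

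Rbbp4, the chaperone shared with PRC2 (chr4:128984344-129012614, minus strand), had 4, 7, 3, 12, 8 and 5 peaks in the same order, over 8.52%, 14.5%, 6.69%, 28.2%, 12.8% and 5.55% of its locus. It was the only member with a larger share in MEFs than in ESCs. An intronic peak near 23 kb was present in every list but MEFs, at 22356 to 23849 in ESCs (251.37), 23262 to 23984 in brain (44.24), 22995 to 24046 in liver (194.96), 23016 to 23924 in shGFP (167.94) and 23055 to 23584 in shSuz12 (38.3). Beyond the end of the gene, in the neighbouring gene Sync, a region was met by every list but brain. It held the highest score of the locus in ESCs (36397 to 37914, 724.49), MEFs (35763 to 37888, 230.77), shGFP (36354 to 37969, 217.01) and shSuz12 (37099 to 37725, 50.4). That MEF score was the highest of the MEF list at any member.

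Sap30 (chr8:59961504-59966657, minus strand) encodes a small protein that binds the Sin3 scaffold, and its short gene was almost bare between marked flanks. The locus had 5, 4, 4, 3, 4 and 7 peaks in the same order, over 34.0%, 12.6%, 18%, 10%, 21.5% and 16.8% of its bp. The only peak within the gene was in MEFs, at 2073 to 2727, with a score of 30.09 near the lowest of that list. Upstream, ESCs had a peak of 3694 bp at -9173 to -5480 (1555.28), and shGFP had 2 peaks over much of it (298.09 and 393.89). Brain (54.27 and 37.06) and shSuz12 (75.5, 106.91 and 76.2) also had peaks there, and MEFs and liver had none. These upstream peaks lie in the neighbouring gene 2500002B13Rik. Downstream, a peak began between 5279 and 5751 in every list but MEFs. The MEF peaks lay at 7664 to 8617 (64.62), 8901 to 9844 (52.81) and 13706 to 14314 (38.03), the last in a region also met by ESCs and shGFP.

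Sap130, the subunit named after its size (chr18:31794025-31882715, plus strand), had many moderate peaks spread along its gene. It had 17, 5, 13, 15, 6 and 12 peaks in the same order, over 13.7%, 3.82%, 12.7%, 15.3%, 4.14% and 6.22% of its locus. A merged region at 68468 to 71368 was met by all 6 lists, with scores of 402.67 in ESCs, 78.65 in MEFs, 56.61 in brain, 339.76 in liver, 84.12 in shGFP and 62.17 and 54.21 in shSuz12. No single base of it was under a peak in all 6, because the liver peak ended at 69817 and the ESC, MEF and shGFP peaks began after it. A second recurrent peak, partly exonic, lay near 64 kb in all lists but MEFs, with 741 bp common to the 5.

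Arid4b (chr13:14155499-14291870, plus strand) has the longest gene of the 10 and the smallest share under peaks in all libraries but MEFs, where Sin3a was lower, and liver, where Sap30 was. It had 4, 3, 11, 19, 1 and 3 peaks in the same order, over 1.55%, 0.883%, 5.52%, 10.4%, 0.399% and 0.909% of its locus. The single shGFP peak lay within an exon at 128619 to 129242 (114.78). The same exon was under a peak in ESCs (128615 to 129314, 418.82), brain (128621 to 129233, 63.97), liver (128517 to 129278, 169.42) and shSuz12 (128673 to 129228, 94.56), but not in MEFs. The liver list had the most peaks, and 11 intronic ones lay between 3832 and 105928 of the gene there, with scores of 89.32 to 228.82. ESCs had 2 peaks in that stretch, at 16136 to 16676 (88.34) and 26881 to 27288 (89.81), each close to the lowest score of its list.

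Suds3 (chr5:117541691-117566002, minus strand) was under peaks along most of its body in ESCs, brain and liver. It had 15, 7, 10, 10, 16 and 15 peaks in the same order, over 53.4%, 10.9%, 40.2%, 53.0%, 36.2% and 24.7% of its locus. ESCs had their highest score at the end of the gene, at 21613 to 25101 (1833.08), and liver had it toward the start, at 3366 to 8224 (1440.25), a single peak of 4859 bp. In brain the highest score was in the middle, at 13639 to 17299 (225.04), and in shSuz12 at the end, at 23521 to 24884 (190.4). Liver also had the widest upstream signal, at -13720 to -9282 (961.73), within the neighbouring gene Taok3. In MEFs the 7 peaks were all at most 1100 bp wide, and 3 merged regions of this locus were still met by all 6 lists.

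Ing1 (chr8:11556066-11563250, plus strand) encodes a subunit whose PHD finger binds histone H3 trimethylated at lysine 4. No locus had a smaller ratio between its highest and lowest share, with 38.8%, 24.3%, 22.7%, 24.8%, 32.3% and 24.9% of its bp under 6, 6, 4, 6, 8 and 8 peaks in the same order. A peak over its exon near 5.7 kb was present in all 6 lists. It ran from 3924 to 6569 in ESCs (2202.72), 5346 to 6266 in MEFs (50.8), 3855 to 6556 in brain (197.91), 5057 to 6347 in liver (369.62), 5191 to 6616 in shGFP (553.42) and 5316 to 6252 in shSuz12 (114.13). Beyond the end of the gene, places near 9 kb and 14 kb were again under a peak in all 6 lists. The latter held the highest shSuz12 score at any member (12640 to 14499, 230.8).

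From 4 recurrent regions that include exons, a stretch outside annotated untranslated regions is shown, to give the sequence of gene-body sites that most libraries shared. Intronic and flanking stretches met by all 6 lists at Suds3 and Ing1 are not shown. Those of Sin3b and Ing1 lie wholly in exons and have 14 and 12 CpG in 200 bases. In that of Suds3, 72 of 200 bases are exonic, with 9 CpG, and in that of Hdac1, 192 are exonic, with 6 CpG. The first 3 were under a peak in all 6 lists and that of Hdac1 in all but MEFs. Sequences are from mm9, 5' to 3' along the gene, with every CpG in capitals.
Sin3b, chr8:75281102-75281301, plus strand, 33915 to 34114: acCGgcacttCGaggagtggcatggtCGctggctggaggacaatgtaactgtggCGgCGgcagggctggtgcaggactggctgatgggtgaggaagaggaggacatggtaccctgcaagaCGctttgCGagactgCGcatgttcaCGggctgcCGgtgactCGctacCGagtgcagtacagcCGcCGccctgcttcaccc
Ing1, chr8:11561765-11561964, plus strand, 5699 to 5898: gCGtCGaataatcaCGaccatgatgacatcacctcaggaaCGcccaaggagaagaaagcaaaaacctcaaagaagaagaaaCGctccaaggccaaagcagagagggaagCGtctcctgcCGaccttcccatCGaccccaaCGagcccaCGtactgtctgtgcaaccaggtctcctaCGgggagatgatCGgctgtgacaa
Suds3, chr5:117558272-117558471, minus strand, 7531 to 7730: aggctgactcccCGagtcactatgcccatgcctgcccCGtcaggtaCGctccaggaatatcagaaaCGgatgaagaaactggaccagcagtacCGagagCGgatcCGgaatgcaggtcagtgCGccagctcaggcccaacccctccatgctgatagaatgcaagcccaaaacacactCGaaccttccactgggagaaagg
Hdac1, chr4:129199599-129199798, minus strand, 20159 to 20358: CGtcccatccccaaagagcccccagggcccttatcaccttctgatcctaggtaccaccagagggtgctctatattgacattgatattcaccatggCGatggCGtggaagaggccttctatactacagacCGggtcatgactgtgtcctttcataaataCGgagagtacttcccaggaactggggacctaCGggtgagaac

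Across the 10 loci the peaks lay on CpG-richer sequence than the rest. CpG density under peaks was 18.3 per kb in ESCs, 17.5 in MEFs, 16.4 in brain, 15.3 in liver, 20.4 in shGFP and 20.0 in shSuz12, against 10.5 to 11.4 per kb outside peaks. Exons of the members were under peaks in 21.0% of their bp in ESCs and introns in 14.4%, a ratio of 1.46, and the ratio was 2.71 in MEFs, 1.24 in brain, 1.43 in liver, 2.31 in shGFP and 2.11 in shSuz12. Over all protein-coding genes this ratio was 2.56 in ESCs, 1.18 in MEFs, 1.65 in brain, 1.85 in liver, 2.66 in shGFP and 2.58 in shSuz12. Exons were thus covered more than introns in each library, with a smaller excess at the members than over all genes in every library but MEFs.

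Along the genes the libraries had different profiles. In ESCs coverage was lowest in the TSS window (8.80% of its bp) and was 12.8% on the TSS side of the gene body, 18% on the other side and 23.8% in the 10 kb downstream. Over all protein-coding genes longer than the window the ESC shares were 13.6%, 10.8%, 12.6% and 16.8% in that order, so they also rose from the TSS side to the downstream flank. In liver the TSS side of the body was covered most, at 23.9%, against 13.1% over all protein-coding genes longer than the window. In MEFs the 2 sides of the gene bodies had 3.68% and 4.21% under peaks, and the 10 kb downstream held 14.5%. Over all those protein-coding genes the MEF shares were 12.2%, 11.7% and 10.7%. The shares of the members pool the bp of all 10, so long genes weigh most. By gene, the MEF share of the gene span ran from 0.717% at Arid4b and 0.783% at Sin3a to 26.1% at Ing1. Downstream bp include neighbouring genes, and between 9 and 27 member peaks per library overlapped another annotated gene.

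**Figure D3:**
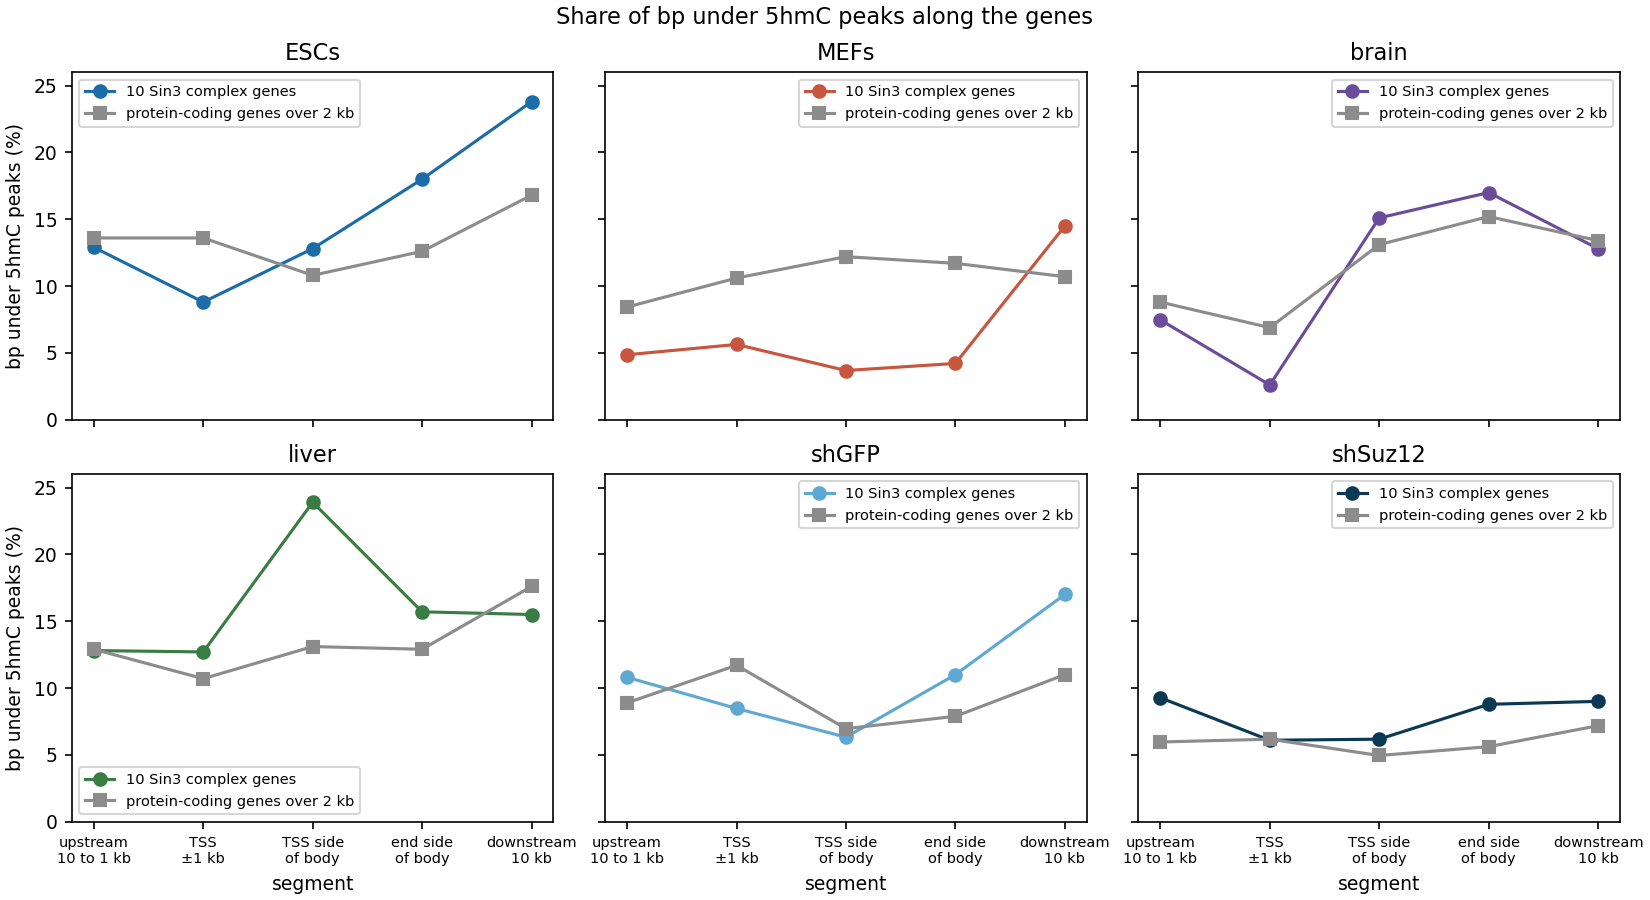
Percent of bp under 5hmC peaks in 5 segments along the genes in each library, for the 10 Sin3 complex genes (coloured circles) and for 19074 protein-coding genes over 2 kb (grey squares). The body beyond 1 kb from the TSS is divided at its midpoint into a TSS side and an end side, and the members reach 23.8% downstream in ESCs and 23.9% on the TSS side in liver.

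Overlapping peaks of the 6 lists merged into 171 regions. Of these 77 (45.0%) were met by 1 library, 36 (21.1%) by 2, 27 (15.8%) by 3, 10 (5.85%) by 4, 11 (6.43%) by 5 and 10 (5.85%) by 6, and over all protein-coding loci the shares were 44.1%, 21.1%, 13.6%, 9.42%, 7.13% and 4.74%. The members' regions were thus shared about as often as regions elsewhere. The 10 regions met by all libraries lay 3 at Suds3, 3 at Ing1 and 1 each at Sin3b, Hdac1, Sap30 and Sap130. Of the regions met by 1 library, 32 were in liver, 17 in shSuz12, 13 in brain, 7 in MEFs, 6 in ESCs and 2 in shGFP. The shares of each library over all loci are not given here, so these counts have no background. A region shared between any of the 3 ESC libraries is not among them. Regions found only in the 3 ESC libraries numbered 31 (18.1%, beside 16.7% over all loci), and 66 (38.6%, beside 43.2%) were found only in MEFs, brain or liver, both near the shares over all loci. Of those 66, 23 were at Arid4b, 12 at Sin3a and 11 at Sap130, which have the 3 longest loci of the 10 (156372, 76327 and 108691 bp), and none was at Sin3b.

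The ESC and liver lists begin at the same lowest score, 80, as those of MEFs and brain do at 30. From ESCs to liver the bp under peaks were lower by 1.5-fold or more at 3 members (41.1% of protein-coding loci) and higher by 1.5-fold or more at 4 (29.5%). The lower ones were Sin3b (18841 bp in ESCs and 6029 bp in liver), Sap30 (8556 and 2527 bp) and Ing1 (10557 and 6744 bp). The higher ones were Arid4b (2425 and 16262 bp), Rbbp4 (4112 and 13615 bp), Sin3a (6782 and 15634 bp) and Hdac2 (3256 and 4952 bp). Suds3 (23645 and 23503 bp), Sap130 (14870 and 16620 bp) and Hdac1 (9595 and 7704 bp) were in neither group. The median ratio of liver to ESCs was 1.06 over the members and 0.898 over all protein-coding loci.

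The 3 members that were lower in liver are the 3 that lie on chromosome 8. In ESCs all protein-coding loci of that chromosome had 26.9% of their bp under peaks, against 11.7% on the other chromosomes, while in liver the shares were 17.0% and 13.0%. On chromosome 8, 58.4% of loci were lower in liver by 1.5-fold or more and 7.36% were higher. The median ratio of liver to ESCs was 0.547 over the loci of chromosome 8 and 0.937 over the others, and the pooled ratio was 0.403 over the 3 members there and 1.52 over the other 7. The part of the whole chromosome in the values of Sin3b, Sap30 and Ing1 was not tested. The other ESC libraries had the same excess, with 17.4% against 7.57% in shGFP and 12.1% against 5.20% in shSuz12.

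The comparison of shSuz12 with shGFP asks how 5hmC at these genes changed when Suz12 was targeted. In the 10 loci together the bp under peaks in shSuz12 were 0.772 of those in shGFP, against 0.689 over the genome. The median ratio was 0.777 over the members and 0.668 over all protein-coding loci with a peak in shGFP. Lower by 1.5-fold or more were 3 of 10 members (49.9% of protein-coding loci), Hdac2 (3936 bp in shGFP and 1403 bp in shSuz12), Rbbp4 (6172 and 2677 bp) and Hdac1 (6828 and 4544 bp). Higher by 1.5-fold or more were 2 (6.93%), Arid4b (624 and 1421 bp) and Sap130 (4504 and 6764 bp). Hdac1 and Sap130 lay just past the fold of 1.5, and Suds3 (16063 and 10926 bp, 1.47-fold lower) lay just short of it. The shSuz12 list holds 5 exact scores that are each found in more than 1000 peaks. Without those peaks, a setting chosen after the data had been seen, Sap130 was no longer called (5874 bp in shSuz12), and Arid4b (1081 bp) alone was higher (5.48% of loci). Lower were then 5 members (57.0% of loci), since Suds3 (10611 bp) and Sap30 (3558 bp) passed the fold as well. Sin3b (10844 and 8740 bp), Sap30 (5419 and 4237 bp), Ing1 (8771 and 6773 bp) and Sin3a (2092 and 2861 bp) were within the fold of 1.5.

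**Figure D4:**
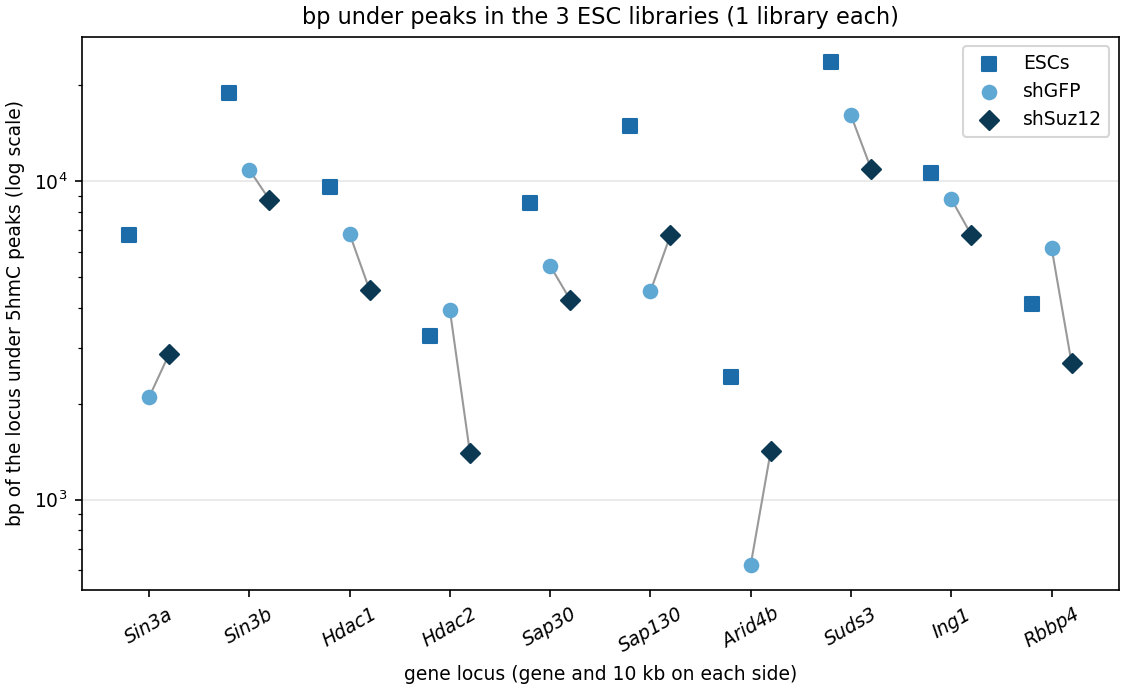
Bp under 5hmC peaks at each locus (logarithmic axis) in the 3 ESC libraries, 1 library each, with a line from shGFP to shSuz12. The line falls at 7 members, most steeply at Hdac2 (3936 to 1403 bp), and rises at Sin3a, Sap130 and Arid4b.

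The score at which the lists begin moved with this comparison. With only peaks of a score of at least 80 the ratio over the 10 loci was 0.268, and that of the genome was 0.242. All 9 members with such peaks in shGFP then had fewer bp in shSuz12, among them Arid4b (624 and 556 bp), Sap130 (1758 and 780 bp) and Sin3a (55 and 0 bp). These 3 had had more bp in shSuz12 over the whole lists. At Arid4b both values come from the same exonic peak. At Sin3a the 55 bp are the edge of a downstream shGFP peak (66272 to 68021, 266.33) that overlaps the neighbouring gene Man2c1. At that score 8 members were lower by 1.5-fold or more, beside 93.0% of protein-coding loci, and Hdac2 had no peak left in either library.

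Untransfected ESCs give a measure of how far 2 libraries without Suz12 targeting lie apart. From ESCs to shGFP the bp were lower by 1.5-fold or more at 5 members (55.4% of protein-coding loci), Sin3a, Sin3b, Sap30, Sap130 and Arid4b, and higher at 1 (4.12%), Rbbp4 (4112 and 6172 bp). The pooled ratio of shGFP to ESCs was 0.636, beside 0.772 for shSuz12 to shGFP. Over the genome these ratios were 0.676 and 0.689. With peaks of a score of at least 80, where the ESC list begins, the ratios were 0.401 and 0.268 at the members. Over the genome they were then 0.459 and 0.242. The order of the pair thus turned with the score at the members and over the genome. In place, 61 of 72 member peaks in shGFP (84.7%) met an ESC peak, as did 76.3% of all shGFP peaks. Of the same 72, 43 (59.7%) met a shSuz12 peak, against 50.5% of all shGFP peaks. The shGFP list is shared by both comparisons.

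The ESC peaks at the members were also set against the other cell types. Of 90 such peaks 49 (54.4%) met the brain list, beside 44.4% of all ESC peaks, and 51 (56.7%) met the liver list, beside 38.4%. For MEFs the count was 28 (31.1%), beside 48.0%. From the MEF side, 28 of 44 member peaks (63.6%) met the ESC list, beside 38.7% of all MEF peaks. These are counts in 1 library each, and the differences were not tested.

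Of 19 other genes of the complex and its partners, Sap25 was the only one with a peak over the TSS window in all 6 libraries, with 1342 to 2000 bp of the 2000 bp covered. No library had one at Sap18, Sap30l, Arid4a, Ing2, Rbbp7, Phf12 and Morf4l1 among subunits and associated proteins, at Mxi1, Mxd4 and Mnt among DNA-binding partners, or at Ogt, an enzyme that adds a sugar to proteins. The shares of all protein-coding genes with such a peak in every library or in none are not given here. Tet1 had 101 bp of its window under a peak in shGFP alone. The number of the 19 with a peak over the window was 3 in ESCs, 5 in MEFs, 1 in brain, 4 in liver, 2 in shGFP and 2 in shSuz12, beside 31.9%, 30.1%, 20.0%, 29.4%, 27.1% and 21.4% of protein-coding genes. Their median share of the locus was 21.6%, 7.61%, 12.5%, 19.9%, 12.3% and 5.46% in that order. Over all protein-coding loci the medians were 9.89%, 6.42%, 8.25%, 7.68%, 5.96% and 4.33%, and both series were lowest in shSuz12. From shGFP to shSuz12, of the 17 with a peak in shGFP, Sap18, Sap30l, Brms1, Phf12, Morf4l1 and Ogt were lower by 1.5-fold or more. Of the same 17, 0 were higher by that fold. Over protein-coding loci the shares lower and higher were 49.9% and 6.93%.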

How the data were processed

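The authors mapped GLIB-Seq reads to mm9 with Bowtie 0.12.7, keeping unique hits with few mismatches and 1 copy of redundant reads, and MACS 1.4.1 called the peaks library by library. CASAVA 1.8 is also named in the submitters' processing notes. The deposited lists give each peak's position and a score, and neither the threshold nor the control of a list is stated in the sources used here. The score was taken as 10 times the negative log10 of the p-value.

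Peak starts were converted to positions counted from 1, and mitochondrial peaks were left out. Genes, exons and TSSs came from GENCODE M1 on NCBIM37, the assembly of mm9, and the TSS is the 5' end of the gene span. Regions are peaks of the 6 lists joined by an overlap of at least 1 bp. Promoter classes follow observed to expected CpG and GC content in windows of 500 bp from -700 to 200. Sequences are stretches of 200 bases free of annotated untranslated regions. Shares over all genes have exact (Clopper-Pearson) 95% intervals, given with the limits below for the TSS window, that cover counting error only. The interval steps were tested on simulated data. Tables were handled with pandas 2.3.3 and numpy 2.4.6, intervals with scipy 1.17.1 and plots with matplotlib 3.10.9, in Python 3.11.15.

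All 10 members are named, and of 19 other genes those with a peak over the TSS window in all libraries or in none, and Tet1. Those of the 19 that were lower from shGFP to shSuz12 by 1.5-fold or more are named as well. The members and lists were chosen with earlier results of these data known. Alternatives were other scores, the list without repeated scores (added after the data had been seen), equal numbers of peaks, other windows, flanks and TSSs. The 2 RNA-Seq samples were not analysed here.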

Additional observations from a re-analysis of the deposited data

How the results depend on the processing

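No paired analysis was possible because there is 1 library per condition. Depth is unknown. Over all protein-coding genes the 95% interval of the share with a peak over the TSS window was 31.3 to 32.5% in ESCs and 20.9 to 21.9% in shSuz12. The ratio of shSuz12 to shGFP over the 10 loci stayed below 1 in each setting. Single members turned at a score of at least 80, namely Sap130 (1758 and 780 bp), Arid4b (624 and 556 bp) and Sin3a (55 and 0 bp). The Arid4b values come from the same exonic peak, and the Sin3a value from the edge of a downstream peak in Man2c1. Of 90 alternative values, 41 stayed close to the reported ones, within 1.5 times for counts and the ratio and within the counting interval for shares of bp. That interval is narrow, and for shGFP even 10.1% with equal numbers of peaks, against 10.3%, fell outside it. Neighbouring bp under the same peak are not independent, so the tally is not a measure of stability. Values are given in the order ESCs, MEFs, brain, liver, shGFP and shSuz12.

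At a score of at least 80 in every list the members with a peak over the TSS window were 0 in MEFs, 0 in brain, 1 in shGFP and 0 in shSuz12, the bp of the loci under peaks 1.74% in MEFs, 4.42% in brain, 6.48% in shGFP and 1.74% in shSuz12, and the ratio of shSuz12 to shGFP 0.268. With only the top-scoring 50% of a list ESCs had 1 such member, MEFs 2, brain 0 and shGFP 1, and the bp 11.4%, 2.80%, 7.86%, 10.9%, 6.01% and 5.20%. With equal numbers of peaks they were 1 in ESCs and 2 in MEFs, and the bp 13.9%, 3.62% and 11.5% in the first 3 libraries, 10.1% in shGFP and 7.45% in shSuz12. A TSS window of 2 kb on each side gave 2 members in brain and 7 in liver, one of 500 bp gave 2 in MEFs, peak midpoints gave 2 in MEFs, and the TSS of any transcript gave 5 in ESCs, 5 in liver, 5 in shGFP, 4 in brain and 4 in shSuz12. With 5 kb on each side the bp were 15.3%, 5.25%, 14.9%, 19.2%, 9.33% and 7.59%, and in the gene span alone 15.2%, 3.85%, 15.7%, 19.4%, 8.52% and 7.30%. Without scores found in more than 1000 peaks of a list, a setting added after the data had been seen, shSuz12 had 1 member and 7.41% of bp, and the other libraries were as reported. With the top-scoring 50% the order of ESCs and liver turned, to 11.4% and 10.9%. In each of these settings but the score of at least 80, MEFs had the lowest share of bp, and there MEFs and shSuz12 did. The ratio of shSuz12 to shGFP otherwise lay between 0.721 and 0.864. The cause of these shifts was not tested beyond the number and bp of peaks each setting keeps.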

Other observations

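Scores in the shSuz12 list repeat in a way that touches the members. Of its peaks 18823 carry 1 of 5 scores that are each found in more than 1000 peaks, from 45.31 in 5864 peaks to 87.37 in 1245 peaks, and no other list has a score found that often. Of the members' 78 peaks in shSuz12, 10 carry such a score, among them the peak in the TSS window of Suds3 and 2 narrow intronic peaks of Sap130, all at 76.2. The 2268 peaks with that score had a median width of 312 bp, against 564 bp over the whole list.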
